A study of Mus musculus with 28 samples.

Results

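The troponin gene family of the mouse has 8 members, and all 8 were measured: the troponin T genes Tnnt1, Tnnt2 and Tnnt3, the troponin I genes Tnni1, Tnni2 and Tnni3, and the troponin C genes Tnnc1 and Tnnc2. They were taken by gene symbol from 19938 genes with a named probe set, and each had exactly 1 probe set with its symbol. The study turned mouse embryonic fibroblasts (MEFs) towards heart muscle cells with lentiviral transcription factors and compared factor combinations. Its 28 arrays hold total RNA of 7 groups: 0F, the cells given no factor, with 3 arrays, the combinations HGMT and HNGMT with 3 each, DMT and DMNT with 4 each, GMT with 5 and NGMT with 6. The letters give the factors delivered, with GATA4 as G, MEF2C as M, TBX5 as T, NKX2.5 as N, Hand2 as H and MYOCD as D. Every combination therefore holds MEF2C and TBX5, and MYOCD takes the place of GATA4 in DMT and DMNT. All cells with factors also carried lentiviruses for rtTA, the activator that doxycycline switches on, and for the TroponinT-GCaMP-Zeo reporter. They received 2 μg/mL doxycycline and 7 days of zeocin at 300 μg/mL, and were harvested on day 21. The 0F cells were untransduced MEFs of the same day, by their titles and protocol, although the source label calls all samples selected. A comparison with 0F thus spans virus, medium, doxycycline and drug selection as well as the factors. Replicates are described as biologically independent. No age, strain or genotype of the embryos is given in the sources used here, nor which stretch or species of the troponin T promoter the reporter carries.

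Troponin is the calcium switch of striated muscle. Troponin T anchors the complex to tropomyosin on the actin filament, troponin I holds the filament in its off state, and troponin C binds calcium and releases that block. The adult heart uses Tnnt2, Tnni3 and Tnnc1, slow skeletal muscle uses Tnnt1, Tnni1 and Tnnc1, and fast skeletal muscle uses Tnnt3, Tnni2 and Tnnc2. The embryonic heart makes Tnni1 before Tnni3 takes over. In this study the family has a further role, since survival in zeocin depended on a troponin T promoter being active in the cell.

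The promoter of Tnnt2 is shown because the reporter was named for troponin T, and those of Tnnc1 and Tnnt1 because these members set the MYOCD combinations apart. Each runs 5′ to 3′ on the gene's own strand and ends 1 base before the RefSeq start, in assembly GRCm38.p6 (Tnnt2 chr1:135836084-135836314, plus strand; Tnnc1 chr14:31208062-31208311, plus strand; Tnnt1 chr7:4515976-4516225, minus strand). The Tnnt2 window has 231 bases because it was shortened to leave out transcribed bases, and the other windows have 250. Capitals mark every match to a searched motif other than the E-box.
Tnnt2: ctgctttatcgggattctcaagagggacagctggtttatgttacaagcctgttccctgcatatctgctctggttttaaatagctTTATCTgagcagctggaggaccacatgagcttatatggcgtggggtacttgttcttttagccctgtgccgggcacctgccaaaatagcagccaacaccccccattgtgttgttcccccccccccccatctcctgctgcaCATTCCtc
Tnnc1: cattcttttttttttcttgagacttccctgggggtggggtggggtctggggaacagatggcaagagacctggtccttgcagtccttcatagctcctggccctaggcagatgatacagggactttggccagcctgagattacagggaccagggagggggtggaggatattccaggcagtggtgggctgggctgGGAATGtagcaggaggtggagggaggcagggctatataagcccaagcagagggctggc
Tnnt1: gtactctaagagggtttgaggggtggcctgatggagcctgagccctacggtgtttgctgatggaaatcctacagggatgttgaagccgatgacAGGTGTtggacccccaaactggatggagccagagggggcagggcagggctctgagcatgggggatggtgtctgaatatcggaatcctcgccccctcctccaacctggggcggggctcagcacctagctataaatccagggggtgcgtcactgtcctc
The letters searched on both strands were AGATAA or AGATAG and their counterparts TGATAA or TGATAG for GATA factors, CATTCC for the M-CAT box bound by TEAD factors, AGGTGT for T-box factors, TNAAGTG for NKX2.5 and CANNTG for the E-box. The MEF2 site and the CArG box, the SRF site that MYOCD acts through, were searched by their usual patterns. In the Tnnt2 window a GATA match lay 161 bases before the start, on the opposite strand, and an M-CAT match 22 bases before it. These Tnnt2 positions are counted from the end of the full window of 250 bases, before it was shortened. In the sequence shown both matches lie nearer to the end. The Tnnc1 window held an M-CAT match at 53 bases, and the Tnnt1 window a T-box match at 152 bases that overlaps an E-box. Among all 32851 RefSeq windows of 250 bases, 26.5% held a GATA match, 12.6% an M-CAT match, 11.8% a T-box match, 10.1% an NKX2.5 match and 66.2% an E-box. MEF2 and CArG matches were in 1.69% and 1.47% of them. Of the 8 members 6 had a window, and none of those windows held a MEF2, CArG or NKX2.5 match. A second window of Tnnt2, at another RefSeq start, held an E-box and no other match. Both windows of Tnni1 and that of Tnni3 held a T-box match, and Tnnc2 held E-boxes and no other match. These are letter matches and say nothing of binding.

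Values are the authors' deposited log2 signal, on which a difference of 1 is a doubling. The arrays fell into 3 sets with nearly equal distributions inside each. Set 1 held 8 arrays (all 0F, GMT replicates 1 and 2, NGMT 1 to 3), with array medians of 6.68 to 6.75. Set 2 held 15 (GMT 3 to 5, NGMT 4 to 6, HGMT, HNGMT, DMT 1 to 3), with medians of 6.86 to 6.95, and set 3 held 5 (DMT 4 and DMNT 1 to 4), with medians of 7.64 to 7.65. Levels are compared between groups only within a set or in a limma fit that carries set as a term. Where groups of a set are said not to overlap, this describes their arrays. The share of all genes that did so is given only between 0F, GMT and NGMT. GMT and NGMT are the groups that sets 1 and 2 share, so in that fit they are the bridge from 0F to every other combination, and the path to DMNT also runs through DMT replicate 4 alone. Within GMT and NGMT, set 2 stood above set 1 for Tnnt1 (0.43), Tnnt2 (0.65), Tnnt3 (0.51), Tnni3 (0.95) and Tnnc1 (0.29) and below it for Tnni2 (-0.15), where 76.2% of all genes were called between sets. The direct difference quoted beside some values is the same test after quantile normalization of all arrays with no set term. A gene was called at an adjusted p under 0.05 (Benjamini-Hochberg over 12211 genes). In set 3 the 4 DMNT arrays had tied values in 54.7% of probe sets, against 0.799% to 10.2% in other groups (the cause was not tested). A tie is any 2 equal values in a group of a set, so groups of 2 or 3 arrays had fewer chances of it. A probe set equal on all 4 DMNT arrays, as for Tnnt3, carries no measure of spread between those cultures. Tnni1 and Tnni3 had 2 distinct values there and Tnni2 had 3.

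Tested against the labels, fibroblast markers were present in every group, with 11 of 11 above the array median on all arrays. Of 12 cardiomyocyte markers, 3 were above the median on all 0F arrays, 6 in GMT, NGMT, HGMT and HNGMT alike, 7 in DMT and 8 in DMNT, while Myl2 and Pln, a ventricular light chain and the calcium pump inhibitor, passed the filter on no more than 2 arrays. Hand2 (2.71 ± 0.07 on the log2 scale, HGMT against GMT) and Myocd (3.63 ± 0.07, DMT against GMT) rose where they had been delivered. For the other factors delivered no such check is given here, except for the factor N, which is taken up below. The samples are bulk RNA, so fewer cells making a transcript and less of it per cell cannot be told apart.

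Tnnt2, cardiac troponin T, separated every factor combination from 0F and hardly separated the combinations from each other. In set 1 its log2 signal was 6.72, 7.04 and 6.97 in 0F, 11.96 and 12.10 in GMT, and 11.83, 11.87 and 11.86 in NGMT. The 0F arrays lay at the 49.4th to 54.2nd percentile of all probe sets on their arrays, where signal and background cannot be separated from these values, and the combinations lay at the 97.7th to 99.3rd. In set 2 it was 12.71, 12.57 and 12.68 in GMT, 12.57, 12.40 and 12.61 in NGMT, 12.67, 12.68 and 12.62 in HGMT, 12.37, 12.57 and 12.62 in HNGMT, and 12.17, 12.29 and 12.54 in DMT. Set 3 gave 13.31 in DMT and 13.23, 13.15, 13.16 and 13.21 in DMNT. No combination array came near a 0F array, and the groups of set 2 differed little, in the order HGMT, GMT, NGMT, HNGMT and DMT.

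Against 0F, Tnnt2 rose in all 6 combinations, by 5.10 ± 0.08 (SE) in GMT and 4.96 ± 0.08 in NGMT, which are 34.4-fold and 31.0-fold (adjusted p = 3.9e-24 and 1.58e-24, limma). Folds against 0F, here and for the other members, may be too small where a 0F signal near the array median is background. The rises were 5.10 ± 0.10 in HGMT, 4.96 ± 0.10 in HNGMT, 4.77 ± 0.10 in DMT and 4.65 ± 0.15 in DMNT. Within set 1, which holds the 0F arrays, the mean differences were 5.12 for GMT and 4.94 for NGMT. Because the zeocin step kept cells in which a troponin T promoter worked, these rises and the selection cannot be told apart, and the 0F cells had no selection. Among combinations, HGMT differed from GMT by -0.01 (95% interval -0.17 to 0.15) and HNGMT from NGMT by 0.00 (-0.16 to 0.16). DMT was lower than GMT by -0.33 ± 0.08 (adjusted p = 0.00276), and the mean difference within set 2 was -0.32. In the direct difference that value was -0.05 (adjusted p = 0.856). DMNT against NGMT, -0.31 ± 0.14, was not called (adjusted p = 0.26) and was 0.44 in the direct difference (adjusted p = 0.0094).

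**Figure D1:**
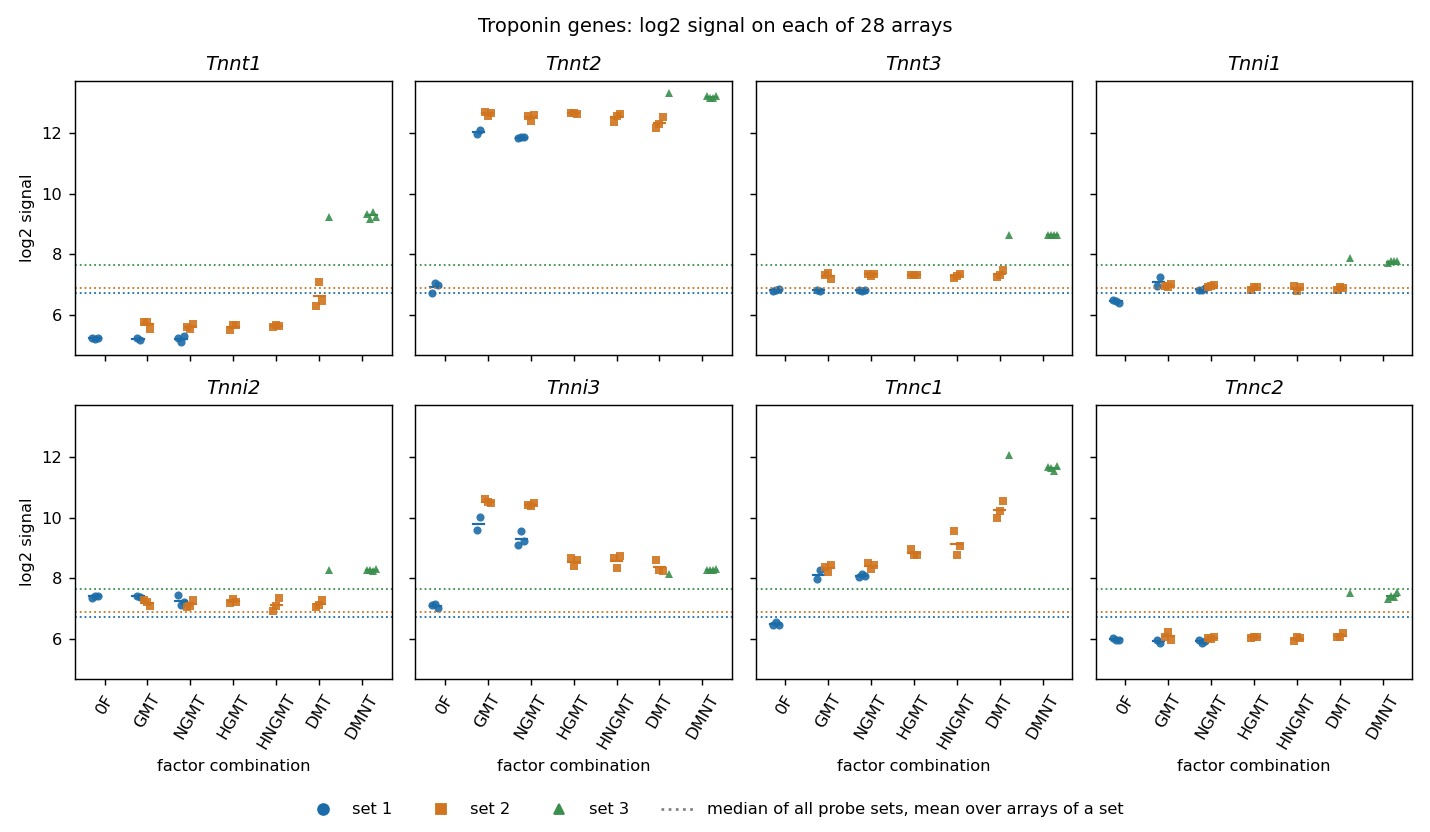
Log2 signal of the 8 troponin genes on each of the 28 arrays, by group, with the array set as colour and shape, short lines for the mean of a group in a set and dotted lines for the array medians of each set. Tnnt2 sits between 11.83 and 13.31 in all arrays with factors and between 6.72 and 7.04 in 0F, Tnni3 is highest in GMT and NGMT, and Tnnt1 and Tnnc1 are highest in DMT and DMNT.

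Tnnt1, slow skeletal troponin T, lay at the 19.9th to 31.4th percentile of the arrays without MYOCD and at the 41.3rd to 73.9th with it. Its log2 signal in set 1 was 5.25, 5.21 and 5.23 in 0F, 5.23 and 5.16 in GMT and 5.24, 5.09 and 5.30 in NGMT, all below the array median. In set 2 the GMT arrays gave 5.76, 5.76 and 5.54 and the DMT arrays 6.28, 7.09 and 6.45, while NGMT, HGMT and HNGMT lay between 5.49 and 5.69. All 3 DMT arrays stood above the 12 other arrays of that set. Set 3 gave 9.24 in DMT replicate 4 and 9.34, 9.17, 9.39 and 9.22 in DMNT. Tnnt1 was above the array median on 6 arrays, DMT replicates 2 and 4 and the 4 of DMNT, and it passed the filter on low signal only through those.

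Since those groups are the ones compared, the Tnnt1 differences are given with the adjusted p of the limma fit over all 19938 genes, which had no such filter. DMT against GMT gave a rise of 0.95 ± 0.12 (adjusted p = 8.98e-07), and 1.58 in the direct difference. Against 0F the rise was 0.95 ± 0.15 in DMT (adjusted p = 1.13e-05) and 0.98 ± 0.23 in DMNT (adjusted p = 0.0013). The comparison groups lay below the array median, where background cannot be told from signal, so no fold is given. In the direct difference these were 1.76 and 3.33, since no set term then takes up the distance between DMT replicate 4 and the other DMT arrays. That distance was 2.64 for Tnnt1, against 0.77 for the array medians. DMNT against NGMT gave 1.03 ± 0.21 (adjusted p = 0.00232), and 3.21 in the direct difference. Without MYOCD no combination had Tnnt1 called against 0F: the 4 values ran from -0.06 to 0.00, and the widest 95% interval, for HGMT, was -0.38 to 0.26.

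Tnnt3, the fast skeletal troponin T, did not separate the groups. It lay at 6.77 to 6.87 in set 1, 7.18 to 7.47 in set 2 and 8.63 to 8.65 in set 3, with all 4 DMNT arrays at the same value of 8.63. Its differences from 0F ran from -0.05 to 0.01 in the 6 combinations and none was called. The direct difference gave 0.52 for DMT (adjusted p = 0.00248) and 0.99 for DMNT (adjusted p = 1.3e-06) against 0F, so for this gene the answer rests on the set term.

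Tnni3, the troponin I of the adult heart, divided the combinations into those with GATA4 and neither Hand2 nor MYOCD, and the rest. In 0F its log2 signal was 7.13, 7.14 and 7.03. In set 1 GMT gave 9.58 and 10.03 and NGMT 9.10, 9.56 and 9.24, all above 0F. In set 2 GMT gave 10.61, 10.51 and 10.48 and NGMT 10.43, 10.38 and 10.49, whereas HGMT gave 8.66, 8.41 and 8.59, HNGMT 8.66, 8.34 and 8.73, and DMT 8.60, 8.26 and 8.24. The 6 arrays of GMT and NGMT and the 9 of the other groups did not overlap. In set 3 DMT gave 8.15 and DMNT 8.27, 8.27, 8.27 and 8.29, at the 57.6th to 59.4th percentile of the arrays. The 0F arrays of set 1 lay at the 55th to 55.6th, and the DMT arrays of set 2 at the 66.7th to 70.7th.

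Against 0F, Tnni3 rose by 2.57 ± 0.13 in GMT (5.94-fold, adjusted p = 8.43e-15) and 2.29 ± 0.12 in NGMT (4.89-fold, adjusted p = 2.35e-14). It rose by 0.50 ± 0.16 in HGMT (adjusted p = 0.0109) and 0.52 ± 0.16 in HNGMT (adjusted p = 0.00859), which were 1.22 and 1.27 in the direct difference. It was not called in DMT (0.31 ± 0.16, adjusted p = 0.103) or DMNT (0.43 ± 0.24, adjusted p = 0.153), and the direct difference for DMT was 0.83 (adjusted p = 0.00835). Adding Hand2 lowered it by -2.07 ± 0.12 (HGMT against GMT, 4.2-fold, adjusted p = 2.53e-12) and by -1.77 ± 0.12 (HNGMT against NGMT, 3.41-fold, adjusted p = 7.71e-11). With MYOCD in place of GATA4 it was lower by -2.26 ± 0.12 in DMT against GMT (4.79-fold, adjusted p = 3.17e-13) and by -1.86 ± 0.21 in DMNT against NGMT (adjusted p = 1.31e-06). Within set 2 alone the mean differences were -1.98, -1.86 and -2.17 for HGMT against GMT, HNGMT against NGMT and DMT against GMT.

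Tnni1, the slow skeletal and embryonic heart troponin I, rose a little in every combination tested against 0F except DMNT. Its log2 signal was 6.39 to 6.48 in 0F, 6.94 and 7.25 in GMT of set 1, 6.83 to 6.88 in NGMT of set 1, and 6.80 to 7.01 in all of set 2. The 0F arrays were below the GMT and NGMT arrays of set 1 and below their own array medians. The rises were 0.57 ± 0.07 in GMT (1.49-fold, adjusted p = 9.79e-08), 0.46 ± 0.07 in NGMT, and 0.43 ± 0.09, 0.45 ± 0.09 and 0.43 ± 0.09 in HGMT, HNGMT and DMT. DMNT gave 0.31 ± 0.13 (adjusted p = 0.0538), which was called in the direct difference (0.41, adjusted p = 0.000391). No comparison among combinations was called, and those differences ran from -0.14 to 0.02. Tnni2, fast skeletal troponin I, lay between 6.91 and 7.44 in sets 1 and 2 and between 8.24 and 8.31 in set 3. Its differences from 0F ran from -0.13 to -0.01 with none called, while the direct difference called it lower in NGMT (-0.31), HGMT (-0.38) and HNGMT (-0.48).

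Tnnc1, the troponin C that heart and slow muscle share, rose in all 6 combinations and most where MYOCD had been delivered. Its log2 signal was 6.45, 6.56 and 6.45 in 0F, 7.96 and 8.27 in GMT and 8.03, 8.15 and 8.06 in NGMT of set 1. In set 2 it was 8.39, 8.19 and 8.43 in GMT, 8.50, 8.31 and 8.45 in NGMT, 8.96, 8.77 and 8.77 in HGMT, 9.57, 8.76 and 9.08 in HNGMT, and 9.99, 10.23 and 10.57 in DMT. Set 3 gave 12.06 in DMT and 11.67, 11.65, 11.56 and 11.73 in DMNT. The 3 DMT arrays of set 2 were above the 12 others, the arrays with Hand2 came next without overlapping GMT or NGMT, and GMT and NGMT overlapped. Percentiles compare a gene with the rest of its own array, and they moved between sets too. In set 1 0F lay at 45.6 to 47.4. In set 2 GMT lay at 66.0 to 68.6, HGMT at 73.0 to 74.8 and DMT at 86.2 to 91.1. In set 3 DMT lay at 96.3 and DMNT below it at 94.2 to 95.1.

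Against 0F, Tnnc1 rose by 1.59 ± 0.14 in GMT (3.01-fold), 1.62 ± 0.13 in NGMT (3.08-fold), 2.06 ± 0.18 in HGMT, 2.36 ± 0.18 in HNGMT, 3.49 ± 0.18 in DMT (11.2-fold) and 3.08 ± 0.26 in DMNT (8.46-fold). The largest of these adjusted p-values was 7.66e-10, for DMNT. DMT against GMT gave a rise of 1.90 ± 0.13 (3.73-fold, adjusted p = 5.87e-11), and DMNT against NGMT 1.46 ± 0.23 (adjusted p = 0.000169), or 2.86 in the direct difference. With Hand2 it rose by 0.74 ± 0.13 in HNGMT against NGMT (1.67-fold, adjusted p = 0.000179). The rise of 0.47 ± 0.13 in HGMT against GMT (adjusted p = 0.0102) was not called in set 2 alone (0.50, adjusted p = 0.0619), in the direct difference (0.51, adjusted p = 0.108) or without HGMT replicate 1 (0.41, adjusted p = 0.0585). Tnnc2, the fast skeletal troponin C, was below the array median on all 28 arrays, at 5.85 to 6.23 in sets 1 and 2 and 7.32 to 7.55 in set 3, and was not tested. Its highest percentile on any array was 48.4.

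**Figure D2:**
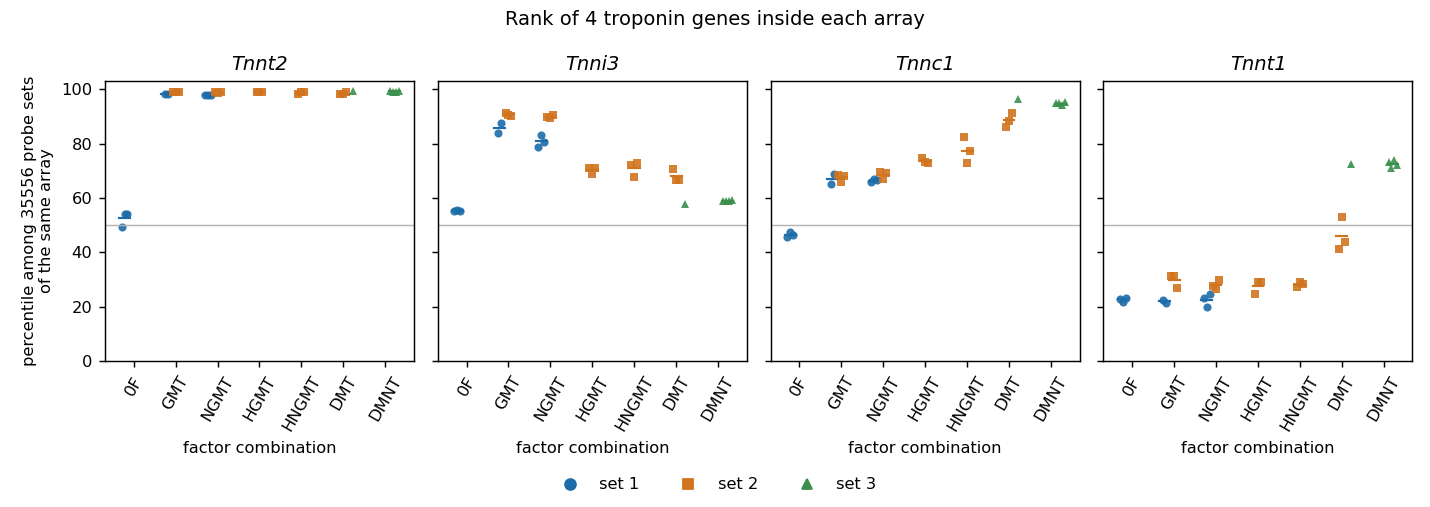
Percentile of 4 troponin genes among all probe sets of the same array, by group, with 1 point per array, short lines for the mean of a group in a set, and a grey line at the array median. Tnnc1 and Tnnt1 are highest in DMT and DMNT, and Tnni3 lies at 89.4 to 91.4 in GMT and NGMT of set 2 and at 57.6 to 72.9 in the arrays with Hand2 or MYOCD.

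Of the 7 members tested, of which Tnnt1 was tested only through arrays of DMT and DMNT, 4 rose and none fell in GMT against 0F, where 35.9% of all 12211 genes rose and 24.1% fell. The same count, 4 and 0, was reached in NGMT (36.6% of all genes rose, 24.2% fell), HGMT (29.9% and 21.2%), HNGMT (26.5% and 23.2%) and DMT (34.6% and 21.8%), and 3 and 0 in DMNT (26.4% and 15%). The 4 were Tnnt2, Tnni3, Tnnc1 and Tnni1 in the first 4 comparisons, with Tnnt1 in the place of Tnni3 in DMT. In DMNT they were Tnnt2, Tnnc1 and Tnnt1. With calls this common among all genes, the count alone sets the family little apart, and its median difference of 0.57 in GMT stood beside 0.05 over all genes. Where the groups share set 1, the 4 called members lay above 0F without overlap in both GMT and NGMT, as did 44.1% and 41.2% of all genes.

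Among combinations, 2 members rose and 2 fell in DMT against GMT (9.84% of all genes rose, 8.75% fell), namely Tnnt1 and Tnnc1, and Tnni3 and Tnnt2. In DMNT against NGMT (3.6% and 2.67%) Tnnt1 and Tnnc1 rose and Tnni3 fell. Tnnc1 rose and Tnni3 fell in HGMT against GMT (12.2% and 14.5%) and in HNGMT against NGMT (8.73% and 22.9%). No member was called in NGMT against GMT (1.63% of all genes called), HNGMT against HGMT (0.622%) or DMNT against DMT (0.0737%), where 3, 1 and 1 had an unadjusted p under 0.05 in limma. The fast members Tnnt3 and Tnni2 were called in none of the 13 comparisons.

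**Figure D3:**
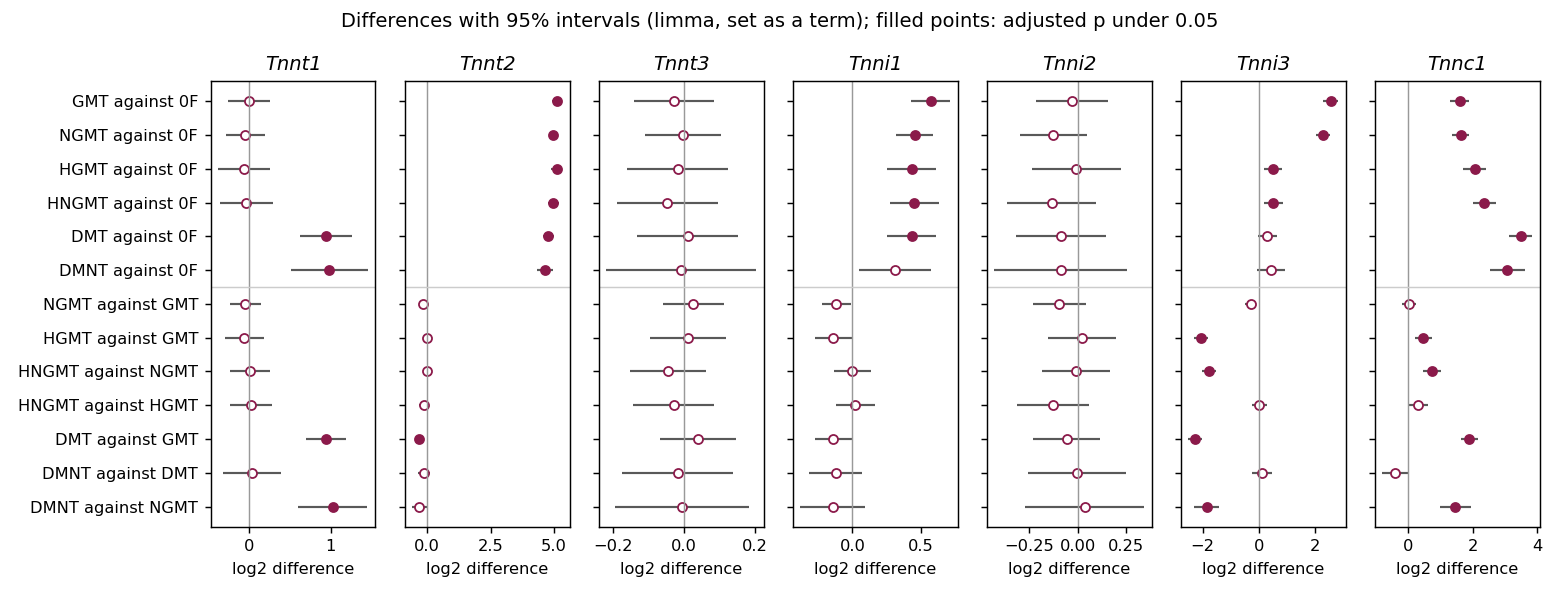
Log2 difference of each tested troponin gene in each comparison of groups, from the limma fit with group and set, with 95% intervals, filled points for an adjusted p under 0.05, and an axis of its own in each panel. Tnni3 is lower where Hand2 was added or MYOCD took the place of GATA4, by -1.77 to -2.26, while Tnnc1 is higher there by 0.47 to 1.90.

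Adding NKX2.5 to GMT gave no call in the family. None of 16 tested transcription factors that act on muscle genes was called in NGMT against GMT, HNGMT against HGMT or DMNT against DMT. The NKX2.5 gene was among these 16, so no rise of its own transcript was called where it had been added. These comparisons therefore cannot tell a lack of effect from a lack of delivery. NGMT against GMT gave -0.28 ± 0.10 for Tnni3 (unadjusted p = 0.00749, adjusted p = 0.174), -0.15 ± 0.06 for Tnnt2 (adjusted p = 0.331) and -0.12 ± 0.05 for Tnni1 (adjusted p = 0.374). In set 1 the NGMT arrays lay below the GMT arrays for these 3 genes, as for 14.7% of all genes. In set 2 the groups overlapped for all 7, where 4.27% of all genes were higher and 3.15% lower without overlap. For Tnni3 the difference was -0.51 ± 0.13 in set 1 and -0.10 ± 0.12 in set 2, and the difference between sets, 0.41 ± 0.18, was not called (adjusted p = 0.675, 0.139% of all genes called). DMNT against DMT gave -0.41 ± 0.19 for Tnnc1 (95% interval -0.81 to -0.01, adjusted p = 1), and HNGMT against HGMT gave 0.31 ± 0.14 (0.01 to 0.60, adjusted p = 0.178). That last value was 0.09 (adjusted p = 0.966) without HNGMT replicate 1 and 0.49 (adjusted p = 0.0196) without HNGMT replicate 2. For DMNT against DMT the fit has a single DMT array in set 3 to lean on, which is assumed to vary as the other groups do. Whether NKX2.5 acted differently with Hand2 or with MYOCD was tested as an interaction: no member was called and none had an unadjusted p under 0.05 in limma, where 0 and 1 of all genes were called (0% and 0.00819%). The largest of these were 0.30 ± 0.16 for Tnni3 with Hand2, and -0.44 ± 0.22 for Tnnc1 and 0.40 ± 0.20 for Tnni3 with MYOCD.

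The members did not move as one across the arrays. After subtraction of the fitted set terms, over the 25 arrays with factors, Tnnc1 correlated with Tnnt1 at r = 0.85 and with Tnni3 at r = -0.811, and Tnnt1 with Tnni3 at r = -0.611. Tnnt2 and Tnnc1 had r = 0.645 over all 28 arrays and -0.693 without 0F. These arrays share groups, so the coefficients describe the group pattern and carry no p-value. Of 3 pairs of members that sit together in the genome, 1 went different ways. On chromosome 7 Tnni3 and Tnnt1 are direct neighbours with no gene between them, and in DMT against GMT the first was lower by -2.26 and the second higher by 0.95. Tnnt2 and Tnni1 lie on chromosome 1 with Lad1 between them and correlated at r = 0.62 over those 25 arrays. Tnni2 and Tnnt3, on chromosome 7 with Lsp1 and Prr33 between them, were both uncalled throughout and correlated at r = 0.589.

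The tested genes most like each member were found by Pearson correlation over the 28 arrays after subtraction of the set terms. For Tnnt2 they were Ankrd1 (0.994), the muscle ankyrin repeat gene, Slc19a2 (0.994), a thiamine transporter, and Rnd1 (0.993). For Tnni3 they were Greb1 (0.964), Rrad (0.96), which codes for a small GTPase of muscle, and Oas3 (0.95). For Tnnc1 they were Popdc2 (0.971), a Popeye domain gene of heart and skeletal muscle, 4930429B21Rik (0.969) and Pls3 (0.963). For Tnnt1 they were Acan (0.964), the cartilage proteoglycan aggrecan, Kcnf1 (0.964) and Krt17 (0.961). Those of Tnni1 were Wnt7a (0.951), Rab20 (0.92) and Rbm24 (0.919), a muscle splicing factor. The nearest to Tnni2 and Tnnt3 were Hip1r (0.831) and Matk (0.801).

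Troponin sits on actin and tropomyosin, and 18 of 22 listed thin filament partners were tested. In GMT against 0F 14 rose and 1 fell, where 35.9% of all genes rose and 24.1% fell, with a median of 0.49 beside 0.05 over all genes. Actc1, cardiac alpha-actin, rose by 3.97 ± 0.20 and Tpm2, beta-tropomyosin, by 1.26 ± 0.07, next to the 5.10 of Tnnt2. In DMT against GMT 11 rose and 1 fell (9.84% and 8.75% of all genes; median 0.59, 0.01 over all genes): Actg2, the smooth muscle gamma-actin, rose by 3.91 ± 0.12, Acta1, skeletal alpha-actin, by 3.44 ± 0.06, and Actc1 by 2.21 ± 0.19, in the same comparison in which Tnnc1 and Tnnt1 rose. Cap2, a cyclase-associated actin regulator of striated muscle, fell there by -1.80 ± 0.12 alongside Tnni3. In HGMT against GMT none rose and 5 fell (12.2% and 14.5% of all genes; median -0.12), among them Cap2 (-0.95 ± 0.12), Tpm1 (-0.26 ± 0.06) and Tpm4 (-0.23 ± 0.04). HNGMT against NGMT had 1 higher and 7 lower (8.73% and 22.9% of all genes). DMNT against NGMT had 10 higher and 1 lower (3.6% and 2.67% of all genes).

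**Figure D4:**
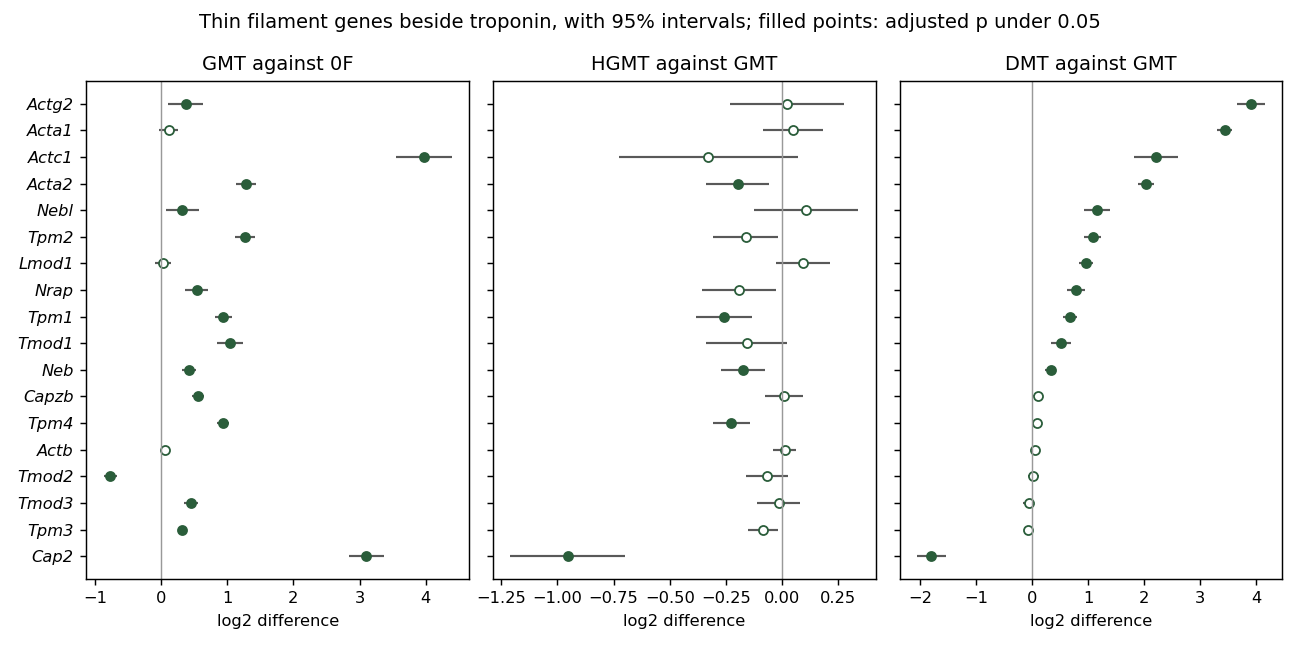
Log2 differences of 18 thin filament genes other than troponin in GMT against 0F, HGMT against GMT and DMT against GMT, with 95% intervals, each panel on its own axis. Filled points had an adjusted p under 0.05; the actin genes Actg2, Acta1 and Actc1 lead the DMT panel, and Cap2 is the lowest gene in both the HGMT and the DMT panels.

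Genes of the muscle types were counted beside the troponins of each type. Of 11 fast skeletal genes tested, 8 rose and 2 fell in DMT against GMT (median 0.83), as did 9.84% and 8.75% of all genes. Among the rises were the fast myosin genes Myh1 (2.07 ± 0.16) and Myh4 (1.66 ± 0.05). The light chain gene Mylpf (2.07 ± 0.05) and muscle creatine kinase Ckm (1.38 ± 0.08) rose too. As with Tnnt1, some of these genes may have passed the filter on low signal only through arrays with MYOCD. The fast troponins Tnnt3 (0.04, 95% interval -0.07 to 0.15) and Tnni2 (-0.06, -0.23 to 0.12) were not called in that comparison. Of 7 slow skeletal genes tested, 1 rose and 2 fell: Casq2, cardiac calsequestrin, rose by 2.33 ± 0.08, and Myoz2 and Csrp3 fell by -0.57 ± 0.11 and -0.33 ± 0.11. The slow gene Tnnt1 rose in the same comparison and Tnni1 was not called (-0.14 ± 0.07, adjusted p = 0.16). Of 13 cardiac sarcomere genes outside the thin filament, 4 rose and 7 fell, with a median of -0.33. Myom1 (3.01 ± 0.13), a protein of the M-band, and Myh6 (2.47 ± 0.11), alpha-myosin, were among the rises, and Myom2 (-1.22 ± 0.16), its M-band relative, among the falls. The myogenic regulators Myod1, Myog and Myf5 were below the array median on all 28 arrays.

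The lists were also counted for Hand2, in HGMT against GMT, where 12.2% of all genes rose and 14.5% fell. Beside the fall of Tnni3, 5 of 13 cardiac sarcomere genes fell and 2 rose, with the atrial light chains Myl7 (-2.28 ± 0.21) and Myl4 (-1.88 ± 0.09) among the falls. None of 11 fast skeletal genes rose and 5 fell, the largest being Pvalb (-2.16 ± 0.18), parvalbumin. Among 16 transcription factors that act on muscle genes, 5 rose and 2 fell, including Tbx20 (2.05 ± 0.13), a cardiac T-box factor, and Gata6 (0.59 ± 0.09). Hand2, the factor delivered, is itself among those that rose. Of 9 listed kinase and phosphatase genes, 2 rose and 2 fell. Mylk, the smooth muscle myosin light chain kinase, was higher by 1.42 ± 0.13. Tnni3k, a kinase named for cardiac troponin I, was lower by -0.35 ± 0.13. Of 9 calcium cycling genes 2 rose and 4 fell. Casq2 rose by 2.74 ± 0.08, and the ryanodine receptor gene Ryr2 fell by -0.59 ± 0.15.

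Markers of other cell types moved with these results, and their part in them was not tested. In DMT, where Tnnc1 and Tnnt1 rose, 9 of 9 smooth muscle markers rose against GMT (median 2.56). Myocd, itself delivered in DMT, is 1 of these 9. Of all genes, 9.84% rose and 8.75% fell in that comparison. The mean of the 9 markers lay 3.21 to 3.88 log2 above the array median in DMT, against 0.473 to 0.799 in GMT. All 9 were above the array median on every DMT array, and 5 were below it on every GMT array. Some may thus have passed the filter on low signal only through arrays with MYOCD. Of 8 adipocyte markers 6 fell in the same comparison (median -1.01). Of 12 skeletal muscle markers, 5 were above the array median on all DMT arrays, against 2 in GMT. In HGMT, where Tnni3 fell, 8 of 8 adipocyte markers rose against GMT (median 1.18), while 12.2% of all genes rose and 14.5% fell. The adipocyte means lay 2.46 to 2.76 above the array median in HGMT, against 0.341 to 1.72 in GMT. Of 3 endothelial markers tested, 2 rose in HGMT against GMT, as did 3 of 6 mesothelial and epithelial markers, of which 1 fell. In every combination 8 of 8 adipocyte markers and 7 or 8 of 9 macrophage markers fell against 0F, and 1 macrophage marker rose. Of all genes, 15% to 24.2% fell and 26.4% to 36.6% rose in the comparisons with 0F. In 0F the adipocyte mean was 5.39 to 5.52 above the array median. Beside the rises of Tnnt2 and Tnnc1 against 0F, 5 or 6 of 6 mesothelial and epithelial markers rose in each combination (median 2.71 in GMT). Of 11 fibroblast markers 6 to 9 fell and 0 to 2 rose (median -0.46 in GMT). In HNGMT against NGMT, where Tnnc1 rose and Tnni3 fell, 7 of 8 adipocyte and 5 of 9 macrophage markers rose. Of all genes, 8.73% rose and 22.9% fell in that comparison. The macrophage mean in HNGMT was -0.38 to 0.539 above the array median, against -0.598 to -0.119 in NGMT.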

How the data were processed

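Total RNA from 28 cultures was labelled with biotin and hybridized to single-channel arrays, per the labels. The authors deposited 1 matrix of 35556 probe sets on a log2 scale (3.757941 to 14.46866). MAS5 is the only tool in the submitters' processing notes, without a version, and the scaling of signals is unknown here. Columns left unused numbered 0. Of the probe sets, 21789 have 1 gene symbol in the platform annotation, 1621 several and 12146 none. Genes were read from their probe set of highest mean, and 12211 above the array median on at least 3 arrays were tested. The limma 3.58.1 fit (R 4.3.3; lmFit, contrasts, eBayes with trend) had group and set as terms and 19 residual degrees of freedom, and covered 13 comparisons and 2 interactions, two-sided. Sets were found from the distance between sorted array values (at most 0.0486 log2 on average inside a set, at least 0.135 between sets). No read depth exists for arrays, and the 3 to 6 arrays per group limit the precision. Groups came from sample titles. The labels' word on independence is all that is known of how replicates were made. No 2 arrays were identical.

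All 8 members were named. In each list up to 4 called genes of largest change were picked out, of which the text gives part, and for each tested member the 3 most like genes (1 for Tnni2 and Tnnt3). Lists covered thin filament partners, muscle types, cardiac sarcomere, regulators, calcium cycling, kinases and phosphatases, and cell type markers. Members and lists were chosen with earlier results of these data known. Promoter windows came from RefSeq (GRCm38.p6). The test script was checked on simulated data. Alternatives covered normalization, set handling, the filter, the trend, a replicate block, left-out arrays and, chosen after seeing the data, the fit without set 3.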

Additional observations from a re-analysis of the deposited data

Results flagged for a closer look

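In 21 groups of 4 to 6 arrays the highest and lowest array were compared with the rest after subtraction of the fitted set terms, and 4 stood apart by Dixon's criterion, which chance alone meets in about 1 of 20 groups. DMT was not among them because its replicate 4 defines its own set term. For Tnni1, GMT replicate 2 was at 7.25 log2 signal, with the other GMT arrays at 6.91 to 7.01. For Tnni3, the same array was at 10.03, with the others at 9.52 to 9.66. Leaving that array out kept the Tnni1 and Tnni3 calls of GMT against 0F. For Tnni1, DMNT replicate 1 was at 6.70 and the other 3 DMNT arrays were all at 6.77. For Tnni3, DMNT replicate 4 was at 7.55 and the other 3 were all at 7.53. The last 2 rest on tied values, which make any small departure stand apart.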

How the results depend on the processing

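Of 34 troponin gene and comparison pairs called, 28 kept their call and direction under every alternative run. The exceptions are given here. With quantile normalization and no set term, the number of members called became 5 in DMNT against 0F (3 as reported), 6 in DMNT against NGMT (3), 2 in DMNT against DMT (0) and 1 in HGMT against GMT (2). It was 6 in DMT against 0F (4), with Tnnt3 and Tnni3 added, 5 in NGMT, HGMT and HNGMT against 0F (4 each), with Tnni2 added as lower, and 3 in DMT against GMT (4). The same setting reversed Tnnt2 in DMNT against NGMT (0.44) and Tnnt3 in DMNT against 0F (0.99), DMNT against DMT (0.47) and DMNT against NGMT (0.83). It took away the Tnnt2 call in DMT against GMT. HGMT against GMT also had 1 member called in set 2 alone, and DMNT against DMT had 1 in set 3 alone (Tnni3, 0.12, adjusted p = 0.0258). That call sets 1 DMT array against 4 DMNT arrays of which 3 are tied, so its spread is near 0 and the call carries no weight. Leaving out single arrays gave 1 to 2 members in HGMT against GMT (1 without HGMT replicate 1) and 0 to 1 in HNGMT against HGMT (Tnnc1 without HNGMT replicate 2, Tnni2 without HNGMT replicate 3). It gave 3 to 4 in DMNT against 0F, 4 to 5 in DMT against 0F and 4 to 5 in HNGMT against 0F. DMNT could not be compared with other groups without DMT replicate 4 or without set 3. Reading the mean over probe sets changes no member, since each has 1.

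Replicate numbers did not pair the samples: deviations of same-numbered arrays from their group means correlated at -0.389 to 0.237 (22 pairs, median -0.00578, 5 above 0.1). A replicate block gave 1 member called in HGMT against GMT, where Tnnc1 was not called. Also uncalled were Tnnt1 in DMNT against 0F (0.85, adjusted p = 0.0585) and against NGMT (0.88, adjusted p = 0.195), and Tnni3 in HGMT (0.52, adjusted p = 0.0689) and HNGMT (0.54, adjusted p = 0.0624) against 0F.

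Counts over all genes moved more. NGMT against GMT had 199 genes called, 4 with no set term, 674 in set 1 alone, 1 in set 2 alone (2 with a block by sample name), 101 without set 3, and 52 (without GMT replicate 2) to 386 (without HNGMT replicate 1) with arrays left out. HNGMT against HGMT had 76, but 40 with quantile normalization and the set term, 0 with no set term, 1 in set 2 alone (1 with that block), 42 with centred arrays, 44 with no filter, 19 with the block, 6 without set 3, and 1 (without HGMT replicate 1) to 3143 (without HNGMT replicate 3) with arrays left out. DMNT against DMT had 9, 14 with quantile normalization and the set term, 719 with no set term, 615 in set 3 alone, 0 with the block and up to 43 without HNGMT replicate 1. DMNT against NGMT had 766, 5416 with no set term, 339 with the block and up to 1173 without HNGMT replicate 1, and DMNT against 0F 5060 and 7787 with no set term. HGMT against GMT had 3258, and 2024 with no set term, 2080 in set 2 alone (2024 with the block by sample name) and 2088 with the block. HNGMT against NGMT had 3865, and 2145 (1999) and 1401. The Hand2 interaction had 0, 2 with quantile normalization and the set term, and 611 without HNGMT replicate 3, and the MYOCD one had 1, 0 with no set term, 2 with no filter and 40 without HNGMT replicate 1. The cause was not tested. Signals at or below the array median, as for Tnnc2 everywhere and Tnnt1 without MYOCD, may hold background alone.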
